A study of Homo sapiens with 18 samples.

Results

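DNA repair and damage signalling genes were examined as a set of 38 genes, fixed by name, out of 38716 gene symbols listed in the deposited tables. By pathway, 10 belong to homologous recombination, 8 to the Fanconi anaemia pathway, 3 to mismatch repair, 8 to the sensing of breaks and checkpoint signalling, 5 to end joining and 4 to base excision and single-strand break repair. They were measured by ribosome profiling (Ribo-seq, which sequences mRNA fragments covered by ribosomes) and by mRNA-seq in IMR90 cells, fibroblasts of the human fetal lung kept as a line from one donor. Young cells were proliferating, old cells had been passaged until replicative senescence, and ICM cells had been given inflachromene, a compound known to attach to HMGB1 and HMGB2, which are proteins of chromatin. The labels give no dose, duration or passage, nor whether young cells received a vehicle. Each condition had 3 replicates per assay, 18 libraries in all, from cultures that the study describes as independent, each lysate serving both assays. As all cultures come from a single line, p-values measure the spread between its cultures.

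As background, homologous recombination copies the sister chromatid to mend a double-strand break and works mainly in S and G2 phase, while end joining rejoins the ends directly and works throughout the cycle. Fanconi anaemia proteins unhook crosslinks between DNA strands and protect stalled replication forks. Mismatch repair corrects copying errors, and base excision repair removes damaged bases. ATM and ATR are the kinases that sense breaks and stalled forks and pass the signal to CHEK2 and CHEK1. Persistent damage signalling, from eroded telomeres for example, is a known feature of senescent fibroblasts, and many recombination and Fanconi genes are transcribed by E2F factors as cells enter S phase.

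Levels are given as CPM, counts per 1000000 reads used from a library. These were the reads in the 5′ UTR, CDS and 3′ UTR for mRNA-seq and in the CDS for Ribo-seq. mRNA-seq libraries held 7902427 to 14144455 used reads, whereas Ribo-seq libraries held 46239 to 1718521, a 37.2-fold range, and all ICM Ribo-seq libraries together held 350091. The share of Ribo-seq reads that fell in the CDS ran from 15.0% to 88.8%. Young replicate 1 and old replicate 2 had the lowest shares. Of 10 fibroblast markers, 9 exceeded 1 CPM in every mRNA-seq library. Among markers of other cells, CDH5 (endothelial) and CD3E (T cell) were at 0 throughout, whereas VWF (endothelial) went from at most 0.529 CPM in young to 3.11 to 4.08 CPM in ICM libraries and CD68 (macrophage) from 19.6 to 21.8 CPM to 55.5 to 66.5 CPM. The marker lists also moved. Summed CPM in young, old and ICM libraries were 29353 to 33090, 25887 to 29122 and 12644 to 12930 for the fibroblast list, 315 to 340, 231 to 252 and 45.4 to 52.5 for 5 epithelial genes, and 285 to 322, 308 to 335 and 71.8 to 79.2 for 3 smooth muscle genes. They were 19.8 to 22.0, 31.0 to 34.0 and 56.4 to 67.3 for 5 immune genes and 0.633 to 0.705, 0.797 to 0.990 and 3.68 to 4.70 for 4 endothelial genes. A list of 14 proliferation genes, MKI67 and the MCM helicases among them, summed to 1173 to 1225 CPM in young, 360 to 386 CPM in old and 141.8 to 150.9 CPM in ICM libraries. These lists move with many changes of the members, and their part in them was not tested. In bulk samples, fewer cells that express a gene and less RNA per cell cannot be told apart.

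All 38 genes passed the expression filter in mRNA-seq, and most were lower in both ICM and old cells than in young cells. In ICM vs young, 30 fell and 1 rose at an adjusted p under 0.05 (edgeR quasi-likelihood test, Benjamini-Hochberg over 13173 genes). Of all genes tested, 71% were called in this comparison, 36.1% lower and 34.9% higher. In old vs young, 33 fell and 1 rose, beside 66.1% of all genes called, 33.7% lower and 32.4% higher. ICM vs old, the direct comparison of the treated and the senescent cells, called 19 lower and 4 higher, beside 63.3% of all genes, 32.6% lower and 30.7% higher. The median log2 change of the members was -0.93 for ICM vs young, -0.68 for old against young cells and -0.30 for ICM against old cells, and that of all genes was -0.01 in each. The first and second of these comparisons share the young libraries, so they are not independent.

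**Figure D1:**
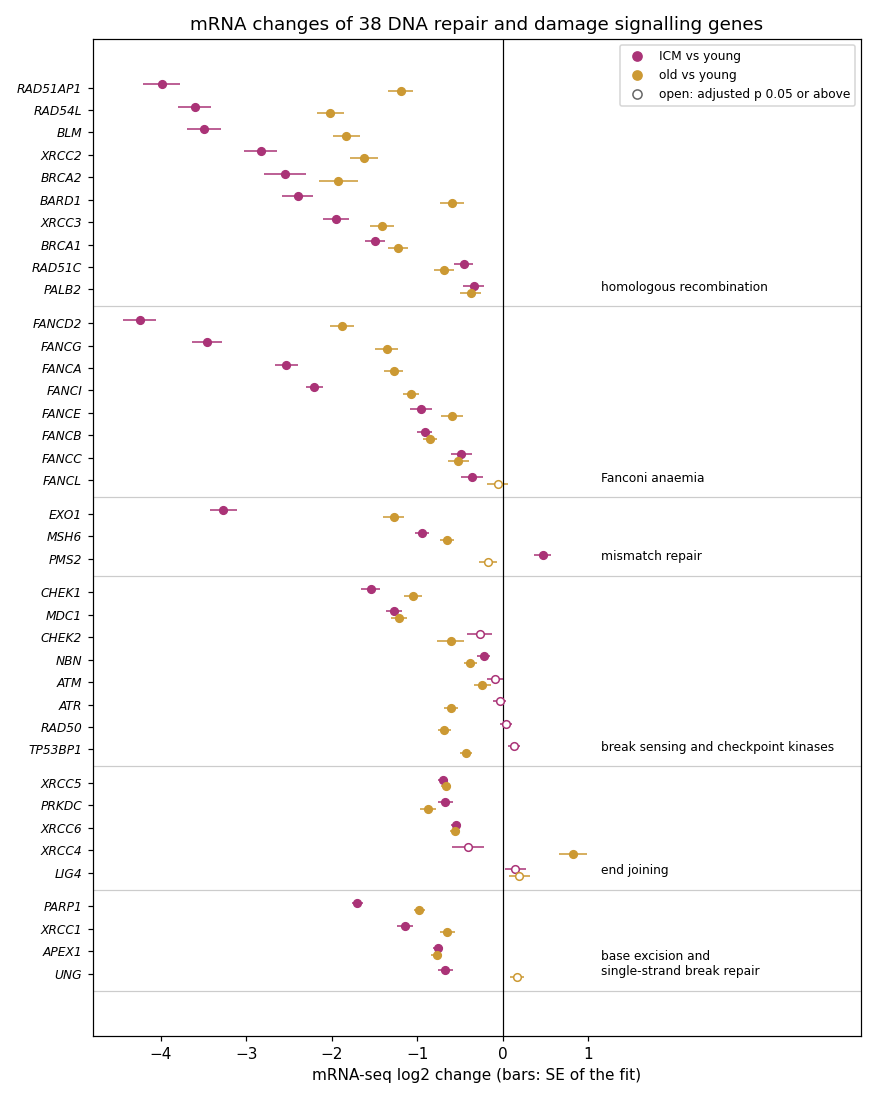
mRNA-seq log2 change of each of the 38 genes for ICM cells and for old cells, each against young, ordered by group and by the ICM value, with bars for the SE and open points for an adjusted p of 0.05 or above. Recombination and Fanconi genes reach -4.25 in ICM cells, whereas the kinases and sensors ATM, ATR, RAD50 and TP53BP1 lie near 0 there and below 0 in old cells.

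The groups moved by different amounts. In ICM vs young, the median log2 change was -2.47 for homologous recombination (10 of 10 fell), -1.58 for the Fanconi anaemia group (8 of 8 fell), -0.95 for mismatch repair (2 of 3 fell, 1 rose), -0.15 for break sensing and checkpoint genes (3 of 8 fell), -0.55 for end joining (3 of 5 fell) and -0.95 for base excision (4 of 4 fell). In old vs young the medians lay closer together, at -1.32 (10 of 10 fell), -0.96 (7 of 8 fell), -0.65 (2 of 3 fell), -0.61 (8 of 8 fell), -0.56 (3 of 5 fell, 1 rose) and -0.71 (3 of 4 fell) in the same order. In ICM vs old, 6 homologous recombination and 6 Fanconi genes were called lower, FANCL among them, which was not called in old vs young, whereas 3 of the 8 sensing genes were higher and 1 was lower. Of all genes, 30.7% were higher and 32.6% lower in ICM vs old, so the share of sensing genes that rose is near that of all genes. The 3 of 8 sensing genes that fell in ICM vs young are likewise near the 36.1% of all genes lower there.

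**Figure D2:**
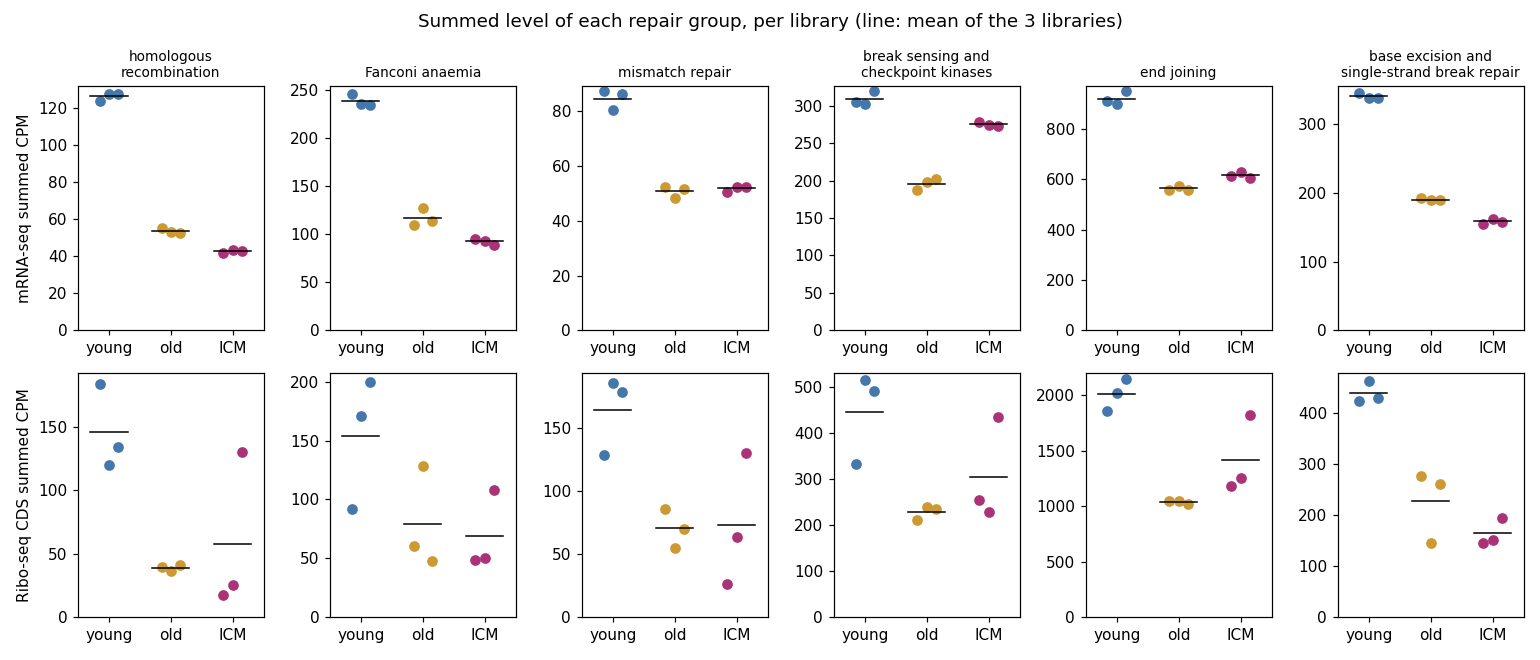
CPM summed over the genes of each group in every library, mRNA-seq above and Ribo-seq below, with a line at the mean of 3 libraries. Break sensing and checkpoint mRNAs sum to 272 to 278 CPM in ICM libraries, above the 188 to 202 CPM of old libraries, and the summed recombination mRNAs to 41.8 to 43.6 CPM, below the 52.4 to 55.1 CPM of old libraries.

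Promoters of the 7 members shown next carry the letters of an E2F site near their start. They are the members with a promoter in the table whose mRNA fell by more than 3 on the log2 scale in ICM cells, and PARP1, the one member that Ribo-seq called lower in ICM than in old cells. Sequences are from RefSeq promoters (build GRCh38.p14, 250 bases before to 50 after the start site), which covered 34 of the 38 members. Each line holds 30 bases read 5′ to 3′ along the gene, and capitals mark the match to the E2F core nearest the start.
RAD51AP1 (chr12:4538858-4538887, plus strand): tctggttttggGCGGGAAttgaaaccgccg
RAD54L (chr1:46247628-46247657, plus strand): gcgcagcactaTTCCCGCctcttccttggg
BLM (chr15:90717338-90717367, plus strand): gcaagcttccgGCGGGAAgtgagccagggc
FANCD2 (chr3:10026424-10026453, plus strand): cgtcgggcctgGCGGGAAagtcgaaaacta
FANCG (chr9:35080008-35080037, minus strand): cctcggtggaaGCGGGAAcccaggaggacc
EXO1 (chr1:241848198-241848227, plus strand): aaggtcagcctTTCGCGCgctgtgtaggca
PARP1 (chr1:226408093-226408122, minus strand): ttccgtgggcgTTCCCGCggccaggcatca
The letters searched were TTGGCGC or TTGCCGC or TTCGCGC or TTCCCGC on both strands. They occurred in the promoters of 21 of the 34 members (61.8%), against 15.3% of 27305 genes in the table. A gene was counted if any of its promoters had a match. The 27305 genes were not limited to expressed ones, whereas all members passed the expression filter in mRNA-seq. The shares of members and of all genes are therefore not like for like, here and for the other letters below. Among the 10 of these 34 with an mRNA log2 change under -2 in ICM vs young, 9 had a match and BRCA2 had none. Among the remaining 24 members, 12 had one (50%). PMS2, the 1 member called higher in ICM than in young cells, was among these 12. ATM, ATR, RAD50, TP53BP1, CHEK1, CHEK2, LIG4, XRCC4, APEX1, PALB2, RAD51C and FANCB had no match in these windows. CCAAT, the letters of the NF-Y site, occurred in 20 of the 34 members (58.8%) and in 39.7% of all genes. It occurred in 4 of the 10 members under -2 (40%) and in 16 of the remaining 24 (66.7%). TTTGAA, the CHR element of G2/M genes, occurred in 5 members (14.7%) and in 18.2% of all genes. It occurred in 0 of the 10 and in 5 of the 24 (20.8%). ATTGG, which is CCAAT read on the other strand, overlaps TTGGCGC in the letters TTGG, so both can be counted at one place. These are matches of letters and not bound sites.

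All 10 homologous recombination genes were lower in both ICM and old cells than in young cells, RAD51AP1 furthest in ICM cells. RAD51AP1, which promotes strand invasion, ran from 9.11 to 10.5 CPM in young, from 3.55 to 4.34 in old and from 0.389 to 0.754 in ICM libraries. In ICM cells its log2 level fell by 3.99 (SE 0.22, 15.9-fold lower), in old cells it fell by 1.19, and its change from old to ICM was -2.80. The 3 conditions did not overlap. RAD54L, a DNA translocase of recombination, was at 11.9, 12.7 and 12.9 CPM in the young libraries, 2.74, 2.76 and 3.19 in the old and 1.32, 1.23 and 0.532 in the ICM libraries. The groups were again separate, and it fell 12.2-fold in ICM and 4.05-fold in old cells. BLM, the helicase that dissolves joint molecules, ran from 8.10 to 9.17 CPM in young, from 2.03 to 2.66 in old and from 0.709 to 0.856 in ICM libraries, and its log2 changes were -3.50 ± 0.20 in ICM and -1.83 ± 0.16 in old cells.

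XRCC2, XRCC3 and RAD51C, which act together in complexes, fell by unequal amounts. XRCC2 ran from 8.999 to 10.8 CPM in young, from 2.74 to 3.28 in old and from 1.06 to 1.87 in ICM libraries and fell 7.12-fold in ICM cells. XRCC3 was at 11.8, 11.4 and 12.5 CPM in the young libraries, 4.36, 3.82 and 4.43 in the old and 2.49, 3.11 and 3.81 in the ICM libraries, 3.87-fold and 2.66-fold lower than young in ICM and old cells. RAD51C was at 21.01, 15.7 and 16.4 CPM in the young libraries, 9.74, 10.9 and 9.83 in the old and 12.9, 12.3 and 13.8 in the ICM libraries. Its log2 changes were -0.45 ± 0.11 in ICM and -0.68 ± 0.12 in old cells, and ICM and old were not told apart (adjusted p = 0.0977).

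BRCA1, which promotes the resection of break ends, was at 25.9, 32.2 and 29.8 CPM in the young libraries, 13.6, 11.5 and 10.5 in the old and 9.96, 12.4 and 9.84 in the ICM libraries. Its log2 changes of -1.49 ± 0.12 in ICM and -1.23 ± 0.11 in old cells both passed the test, and ICM and old libraries overlapped with an adjusted p of 0.081 between them. Its partner BARD1 ran from 7.84 to 9.11 CPM in young, from 4.67 to 5.49 in old and from 1.40 to 1.86 in ICM libraries. BARD1 thus fell 5.29-fold in ICM and 1.51-fold in old cells, and the direct comparison gave a further log2 change of -1.81 ± 0.19 (adjusted p = 2.28e-08). BRCA2, a mediator of recombination, ran from 5.57 to 8.52 CPM in young, from 1.42 to 2.13 in old and from 0.566 to 1.63 in ICM libraries and its log2 changes were -2.55 ± 0.25 and -1.92 ± 0.23. PALB2, the bridge between BRCA1 and BRCA2, was at 10.8, 12.8 and 11.2 CPM in the young libraries, 9.54, 8.55 and 7.26 in the old and 8.95, 9.90 and 9.40 in the ICM libraries. PALB2 changed least of the group, by -0.34 ± 0.12 in ICM (adjusted p = 0.0187) and -0.38 ± 0.13 in old cells. DESeq2 did not call the former (adjusted p = 0.069), and neither did fits without ICM replicate 1 (0.075) or young replicate 2 (0.12), and the latter was lost without old replicate 3 (0.069) or young replicate 2 (0.089).

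Among the Fanconi anaemia genes, FANCD2, whose ubiquitination marks the crosslinked site, showed the largest fall of all 38. It was at 15.2, 19.04 and 19.2 CPM in the young libraries, 3.75, 4.95 and 4.78 in the old and 0.778, 0.754 and 1.33 in the ICM libraries, 19.03-fold lower in ICM and 3.69-fold lower in old cells. FANCI, its partner in the clamp, was at 56.4, 48.5 and 49.9 CPM in the young libraries, 19.9, 24.96 and 23.3 in the old and 11.5, 12.2 and 10.3 in the ICM libraries. FANCI fell 4.62-fold and 2.11-fold. For both genes, every ICM library was below every old library, and every old library below every young one.

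FANCA and FANCG belong to the core complex that ubiquitinates this clamp. FANCA was at 21.9, 26.7 and 25.6 CPM in the young libraries, 8.02, 9.90 and 10.8 in the old and 3.97, 4.43 and 4.79 in the ICM libraries. FANCG was at 18.7, 14.01 and 19.4 CPM in the young libraries, 5.99, 6.36 and 6.55 in the old and 1.87, 1.41 and 1.42 in the ICM libraries. They fell 5.78-fold and 11.04-fold in ICM cells and 2.42-fold and 2.56-fold in old cells, with no overlap between the conditions. FANCE, the adaptor to the clamp, was at 9.62, 10.6 and 10.4 CPM in the young libraries, 6.39, 6.15 and 6.55 in the old and 5.91, 4.71 and 5.32 in the ICM libraries, and its log2 changes were -0.96 ± 0.13 and -0.59 ± 0.13. Its difference between ICM and old, -0.37 ± 0.14 (adjusted p = 0.0242), was lost in DESeq2 (adjusted p = 0.088), in CDS reads alone (0.061) and without ICM replicate 2 (0.092), ICM replicate 3 (0.061) or old replicate 3 (0.058).

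Other core members changed less. FANCC was at 17.1, 13.9 and 14.3 CPM in the young libraries, 10.05, 10.4 and 8.86 in the old and 11.9, 8.96 and 11.7 in the ICM libraries. Its log2 changes were -0.48 ± 0.12 in ICM and -0.52 ± 0.12 in old cells. FANCL, the ubiquitin ligase itself, was at 10.4, 13.7 and 13.5 CPM in the young libraries, 11.3, 12.6 and 10.3 in the old and 10.1, 9.05 and 10.99 in the ICM libraries. The conditions overlapped, and FANCL was called lower in ICM vs young at -0.36 ± 0.13 (adjusted p = 0.015) and not called for old cells, where its log2 change was -0.06 ± 0.12. The ICM call was lost without ICM replicate 2 (adjusted p = 0.061), young replicate 2 (0.087) or young replicate 3 (0.063). FANCL was also called lower in ICM than in old cells (adjusted p = 0.0386), a call that ended in CDS reads alone (adjusted p = 0.30), in DESeq2 (0.094) and without ICM replicate 1 (0.082), ICM replicate 2 (0.13), old replicate 1 (0.066) or old replicate 2 (0.18).

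FANCB, the remaining core member, had a high level that lay almost wholly outside its CDS. It was at 97.1, 89.01 and 82.4 CPM in the young libraries, 44.04, 51.8 and 42.9 in the old and 49.4, 51.95 and 43.4 in the ICM libraries, of which 93.9% to 96.5% of reads per library were counted in the 3′ UTR. In Ribo-seq, 265.5, 78.8 and 16.5 estimated reads of the pooled young, old and ICM libraries were counted in its 3′ UTR, but only 28, 10 and 2 in its CDS. In the GENCODE annotation of GRCh37, exons of FANCB on chromosome X, minus strand (14708510 to 14891377), overlap NPM1P9, a processed pseudogene of NPM1, over 844 bases at 14852598 to 14853441 on the same strand, 0 of them in a 3′ UTR of that annotation. The release behind the deposited tables and the placing of reads with several matches are not given in the sources used here, so reads of NPM1 and FANCB cannot be told apart. NPM1 changed by -0.85 and -0.90 on the log2 scale in ICM and old cells, and FANCB by -0.91 and -0.85. In CDS reads alone, the log2 change of FANCB was -0.65 in ICM cells (adjusted p = 0.0096) and -1.09 in old cells (adjusted p = 0.00037).

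Mismatch repair genes split. EXO1, the exonuclease that also resects break ends, was at 18.7, 15.3 and 15.9 CPM in the young libraries, 6.90, 6.15 and 6.20 in the old and 1.56, 1.98 and 1.68 in the ICM libraries. It fell 9.67-fold in ICM and 2.42-fold in old cells, with no overlap between conditions. MSH6, which recognises mismatches, was at 53.7, 47.9 and 54.3 CPM in the young libraries, 32.6, 29.4 and 30.8 in the old and 24.9, 28.7 and 28.6 in the ICM libraries. Its log2 changes were -0.95 ± 0.08 and -0.65 ± 0.08. The fall of MSH6 from old to ICM, -0.29 ± 0.09 in the full libraries, turned to 0.39 (adjusted p = 0.56) when mRNA-seq was thinned to the depth of Ribo-seq.

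PMS2, the endonuclease subunit of the mismatch complex, was at 14.8, 17.1 and 16.2 CPM in the young libraries, 12.7, 12.9 and 14.7 in the old and 24.05, 21.8 and 22.2 in the ICM libraries. It was the one member called higher in ICM than in young cells, by 0.47 ± 0.10 against young (adjusted p = 0.000151) and by 0.64 ± 0.10 against old cells (adjusted p = 4.51e-06). The rise against young was lost where a log2 change over 0.6 was required. All ICM libraries were above all others. In old vs young its log2 change was -0.17 ± 0.10 and was not called. PMS2 has near-identical pseudogene copies, as CHEK2 does, so its reads are uncertain as those of a single gene.

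Of the 8 sensing and checkpoint genes, 4 were called between ICM and old cells, beside 63.3% of all genes. ATR, the kinase of stalled forks, was at 30.5, 29.96 and 31.7 CPM in the young libraries, 18.5, 19.7 and 18.4 in the old and 31.1, 28.5 and 32.01 in the ICM libraries. Old libraries were below all others, while young and ICM libraries overlapped. The log2 change was -0.61 ± 0.08 in old cells (adjusted p = 1.2e-06), -0.04 ± 0.08 in ICM cells (adjusted p = 0.694), and ICM was higher than old by 0.57 ± 0.08 (adjusted p = 2.35e-06). RAD50, the coiled-coil subunit of the break-sensing MRN complex, was at 42.01, 46.5 and 47.3 CPM in the young libraries, 25.9, 26.6 and 27.1 in the old and 46.5, 49.7 and 46.6 in the ICM libraries. It showed the same order, with -0.68 ± 0.08 for old cells, 0.04 ± 0.07 for ICM cells and 0.72 ± 0.08 between ICM and old. TP53BP1, the chromatin reader that restrains resection, was at 76.3, 76.8 and 79.2 CPM in the young libraries, 52.5, 52.2 and 56.9 in the old and 87.9, 91.5 and 79.4 in the ICM libraries. Every ICM library was above every young and every old library, and the log2 changes were -0.43 ± 0.07, 0.13 ± 0.07 and 0.56 ± 0.07 in the same order.

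ATM, the kinase activated by MRN at breaks, was at 26.7, 34.99 and 34.3 CPM in the young libraries, 22.3, 26.6 and 27.6 in the old and 30.6, 31.02 and 31.2 in the ICM libraries. Young libraries overlapped those of both other conditions. A log2 change of -0.24 ± 0.10 in old cells was called (adjusted p = 0.0376), but not by DESeq2 (adjusted p = 0.069), not with the compared conditions alone (0.066) and not without old replicate 1 (0.19), young replicate 2 (0.21) or young replicate 3 (0.13). NBN, the adaptor of MRN, was at 60.6, 54.1 and 61.2 CPM in the young libraries, 40.7, 44.3 and 41.4 in the old and 54.4, 44.5 and 54.3 in the ICM libraries. Its log2 changes were -0.38 ± 0.08 in old and -0.22 ± 0.08 in ICM cells, and the ICM call was lost without ICM replicate 2 (adjusted p = 0.13), young replicate 1 (0.054) or young replicate 3 (0.062). MDC1, the scaffold on phosphorylated histone H2AX, was at 28.98, 28.5 and 30.1 CPM in the young libraries, 11.97, 10.5 and 12.9 in the old and 12.4, 12.2 and 12.3 in the ICM libraries. Its log2 changes were -1.27 ± 0.09 in ICM and -1.22 ± 0.09 in old cells, and they overlapped (ICM vs old adjusted p = 0.673).

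Of the checkpoint kinases, CHEK1, the target of ATR in S phase, was at 32.1, 24.5 and 26.997 CPM in the young libraries, 11.97, 11.7 and 13.8 in the old and 9.57, 9.43 and 9.93 in the ICM libraries. It fell 2.91-fold in ICM and 2.07-fold in old cells, and the ICM libraries were all below the old ones. CHEK2, the target of ATM, ran from 7.14 to 8.52 CPM in young, from 4.06 to 5.73 in old and from 5.91 to 6.98 in ICM libraries. It was called lower in old cells at -0.61 ± 0.16 (adjusted p = 0.00178) and not in ICM cells, where its log2 change was -0.27 ± 0.15. ICM and old were not told apart for CHEK2 (adjusted p = 0.0662).

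The Ku genes of end joining held the highest levels per length of the 38. Per kilobase of coding sequence and 1000000 CDS reads (RPKM), the mRNA level of XRCC6 in young cells was 307 ± 8.90 (SD, n = 3), that of XRCC5 201 ± 8.11 and that of PRKDC 18.9 ± 3.40, whereas LIG4 stood at 7.46 ± 1.88 and XRCC4 at 10.6 ± 3.03. XRCC5 and XRCC6 encode Ku80 and Ku70, the ring that binds break ends. XRCC5 was at 344, 320.4 and 339.7 CPM in the young libraries, 198, 199 and 196 in the old and 204, 216 and 210.2 in the ICM libraries. XRCC6 was at 409, 386 and 388 CPM in the young libraries, 247, 263 and 241 in the old and 273, 281 and 269.9 in the ICM libraries. Both fell, 1.62-fold and 1.46-fold in ICM and 1.59-fold and 1.47-fold in old cells. ICM vs old was not called for either (log2 changes of -0.03 ± 0.06 and 0.01 ± 0.06).

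PRKDC, the catalytic subunit of the DNA-dependent kinase that Ku recruits, was at 138, 169 and 194 CPM in the young libraries, 84.6, 79.6 and 92.5 in the old and 108, 107 and 106 in the ICM libraries. It fell 1.60-fold in ICM and 1.84-fold in old cells. LIG4, the ligase of this pathway, was at 11.9, 16.6 and 18.5 CPM in the young libraries, 16.2, 17.4 and 17.4 in the old and 19.1, 18.7 and 15.96 in the ICM libraries. LIG4 was not called in any comparison, and its conditions overlapped. XRCC4, the scaffold of LIG4, was at 9.11, 5.90 and 10.2 CPM in the young libraries, 12.8, 15.3 and 12.8 in the old and 8.02, 5.94 and 4.97 in the ICM libraries. It was the one member called higher in old than in young cells, by 0.83 ± 0.16 (adjusted p = 0.000142), and all old libraries were above all others. In ICM vs young its log2 change was -0.40 ± 0.19 (adjusted p = 0.0612), and ICM was 2.34-fold lower than old (adjusted p = 1.19e-06).

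In base excision and single-strand break repair, PARP1, the sensor of strand breaks that makes poly(ADP-ribose), was at 157, 149.7 and 149.6 CPM in the young libraries, 73.1, 67.9 and 76.3 in the old and 47.01, 48.8 and 47.1 in the ICM libraries. It fell 3.25-fold in ICM and 1.97-fold in old cells, and ICM was 1.65-fold lower than old (adjusted p = 3.48e-09). XRCC1, the scaffold recruited by PARP1, was at 29.2, 26.6 and 26.03 CPM in the young libraries, 16.6, 16.97 and 15.1 in the old and 12.2, 12.3 and 13.2 in the ICM libraries. Its order was the same, with log2 changes of -1.14 ± 0.09, -0.65 ± 0.09 and -0.49 ± 0.10 for ICM against young, old against young and ICM against old.

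UNG, the glycosylase that removes uracil, was at 26.7, 25.6 and 27.5 CPM in the young libraries, 28.2, 28.2 and 27.2 in the old and 16.1, 17.9 and 17.02 in the ICM libraries. UNG thus fell 1.59-fold in ICM cells, while in old cells it was not called, at 0.16 ± 0.08 (adjusted p = 0.0799). The log2 change from old to ICM was -0.83 ± 0.08 (adjusted p = 1.23e-08). APEX1, the endonuclease that cuts abasic sites, was at 133, 137 and 135 CPM in the young libraries, 74.6, 76.4 and 70.8 in the old and 79.9, 83.9 and 80.9 in the ICM libraries. Its falls were alike in size, -0.75 ± 0.06 and -0.77 ± 0.06, with 0.02 ± 0.06 between ICM and old (adjusted p = 0.796).

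Where reads fell within the gene also changed for several members. In RAD54L, 4.26, 5.56 and 2.26% of mRNA-seq reads were in the 3′ UTR in young libraries, 22.2, 10.3 and 41.7% in old and 76.5, 69.2 and 83.3% in ICM libraries. In BLM, the shares were 6.98, 6.43 and 8.62% in young, 21.3, 19.4 and 20.9% in old and 55.2, 63.3 and 88.2% in ICM libraries. In FANCA they were 23.7, 24.8 and 18.1% in young, 32.9, 29.3 and 27.9% in old and 62.7, 53.2 and 51.9% in ICM libraries. FANCI and FANCD2 rose as well, from means of 18.6% and 8.88% in young to 42.4% and 33.0% in ICM libraries. For all 5, every ICM library was above every young one. Few reads lie behind some of these shares, 1 to 4 CDS reads per ICM library for RAD54L and BLM. FANCD2 had 2.17 to 4.5 estimated 3′ UTR reads per ICM library.

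**Figure D3:**
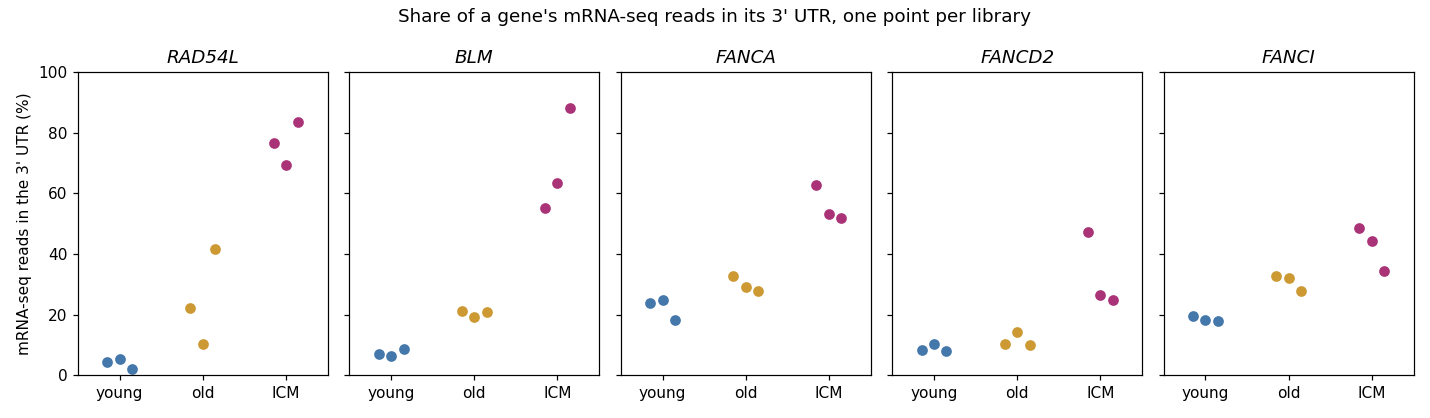
Share of each gene's mRNA-seq reads that were counted in its 3′ UTR, in percent, with a point per library. In RAD54L the ICM libraries lie at 69.2% to 83.3% and the young libraries at 2.26% to 5.56%, and the old libraries lie between them in all panels but that of FANCD2, where old and young overlap.

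The share rose by over 10 percentage points from young to ICM in 7 of the 38 members, the 5 above with XRCC2 and BRCA2, beside 3.95% of the 13173 genes tested, whose median change was -0.25 points. None of the members fell by as much. The shares of XRCC2 and BRCA2 also rest on few reads. Per ICM library, XRCC2 had 1 to 2 CDS reads and BRCA2 1.67 to 3.5 estimated 3′ UTR reads. In RAD54L it was the CDS reads that fell. The CDS level of RAD54L went from 8.73 to 10.6 CPM in young to 0.0887 to 0.377 CPM in ICM libraries, while its 3′ UTR level was 0.290 to 0.705 and 0.443 to 1.01 CPM. In the GENCODE annotation of GRCh37, exons of a gene on the opposite strand overlap the 3′ UTR of RAD54L (LRRC41, 201 bases), BLM (a long non-coding RNA, 268 bases), FANCA (ZNF276, 1117 bases) and FANCI (POLG, 371 bases). Whether reads were counted by strand is not given in the sources used here, so reads of each pair cannot be told apart. Counted in CDS reads alone, the ICM vs young log2 changes were -5.18 for RAD54L, -5.01 for BLM, -4.83 for FANCD2, -3.30 for FANCA and -2.69 for FANCI, larger falls than those over the whole transcript. In the same comparison, 30 of 38 members were called in CDS reads alone, 29 lower and 1 higher. Of all 12350 genes tested that way, 8236 were called, 4127 lower and 4109 higher. Other overlapping pairs on opposite strands, such as MSH6 with FBXO11, TP53BP1 with TUBGCP4 and XRCC3 with KLC1, are uncertain in the same way. RAD50 shares 8124 exon bases, 3718 of them in its 3′ UTR, with another annotated protein-coding gene on the same strand. Counting by strand would not separate the reads of that pair.

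Footprints were scarce. Only 11 of the 38 genes passed the filter in Ribo-seq, FANCI, MSH6, ATM, ATR, TP53BP1, RAD50, XRCC5, XRCC6, PRKDC, PARP1 and APEX1, and none of them belongs to homologous recombination. Since a gene can pass through its young level alone, the counts describe these 11 and not the 38. In ICM vs young, 5 were called lower and 0 higher, beside 26.6% of the 4643 genes tested, 12.9% lower and 13.7% higher. In old vs young, 10 were called lower and 0 higher, beside 36.3% of all genes, 17% lower and 19.3% higher. In ICM vs old, 1 was called lower and 0 higher, beside 13.4% of all genes, 7.62% lower and 5.79% higher. The counts moved with single libraries, and so did the number of members tested. In old vs young, DESeq2 and a replicate block each called 2 of 11. Calls were 2 of 9 without young replicate 2 or young replicate 3, 4 of 9 without old replicate 1, 5 of 9 without old replicate 3, 15 of 19 without young replicate 1 and 11 of 21 without old replicate 2. All genes moved alongside, from 1685 called of 4643 to 530 in DESeq2, 653 with the block, 516 of 3909 without young replicate 2 and 2160 of 7248 without young replicate 1. In ICM vs young, DESeq2 called 3 of 11, and calls were 3 of 17 without ICM replicate 1, 9 of 19 without young replicate 1 and 9 of 21 without ICM replicate 3. The all-gene counts were 1236 of 4643 in the full data, 688 in DESeq2, 778 of 6720 without ICM replicate 1, 1553 of 7248 without young replicate 1 and 1758 of 7323 without ICM replicate 3. At an unadjusted p under 0.05, the 3 comparisons gave 6, 11 and 2 members.

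**Figure D4:**
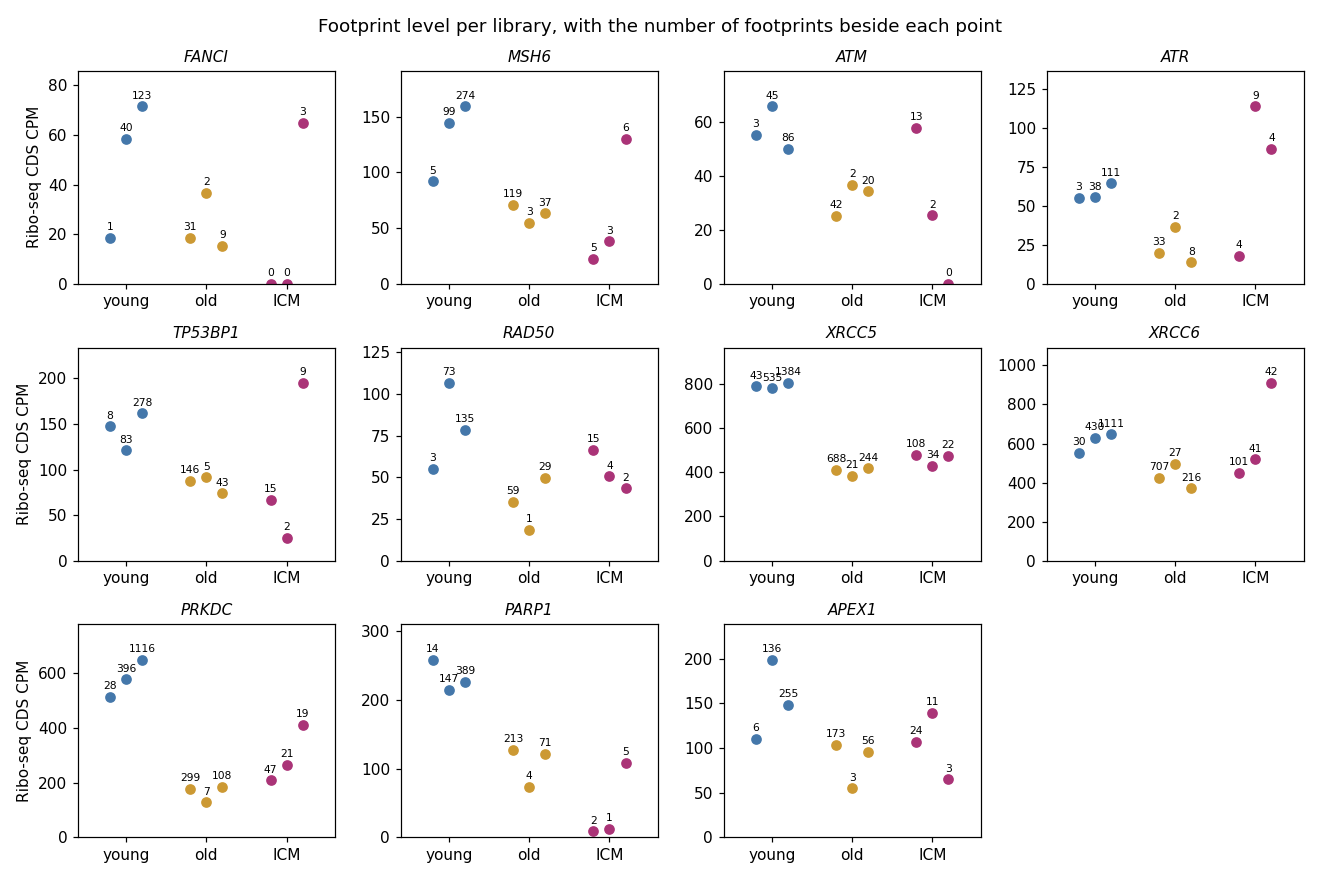
Footprint level in CPM of the 11 members tested in Ribo-seq, with a point per library and the number of CDS footprints beside it. Points with few footprints scatter widely, as in ICM replicate 3, whereas XRCC5 lies at 781 to 805 CPM in young, 385 to 418 in old and 431 to 480 in ICM libraries.

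PARP1 showed the largest fall in footprints. Its level was 258, 215 and 226 CPM in young, 127, 73.3 and 122 CPM in old and 8.89, 12.7 and 108 CPM in ICM libraries. These rest on 14, 147 and 389 footprints in the young, 213, 4 and 71 in the old and 2, 1 and 5 in the ICM libraries, 550 in all in young and 8 in ICM cells. ICM replicate 3, with 5 footprints, overlapped the old libraries. The log2 change was -3.25 ± 0.46 for ICM cells (adjusted p = 1.52e-06), -0.75 ± 0.22 for old cells (adjusted p = 0.00694) and -2.50 ± 0.51 between ICM and old (adjusted p = 0.000433). The last was lost without ICM replicate 1 (adjusted p = 0.079), and the old call in DESeq2 (0.16), with a replicate block (0.080) and without young replicate 2 (0.083) or young replicate 3 (0.12).

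XRCC5 was measured best. Its footprint level was 792, 781 and 805 CPM in young, 411, 385 and 418 CPM in old and 480.0, 431 and 476 CPM in ICM libraries, from 1962, 953 and 164 pooled footprints. ICM and old libraries were all below the young ones, with log2 changes of -0.77 ± 0.19 and -0.84 ± 0.17. PRKDC stood at 515, 578 and 649 CPM in young, 179, 128 and 185 CPM in old and 209, 266 and 412 CPM in ICM libraries. All ICM and old libraries were below all young ones, and the log2 changes were -1.21 ± 0.24 in ICM (adjusted p = 0.000177) and -1.64 ± 0.20 in old cells (adjusted p = 5.34e-08). XRCC6 stood at 552, 628 and 647 CPM in young, 423, 495 and 370.1 CPM in old and 449, 519 and 909.7 CPM in ICM libraries. It was called in old cells alone (-0.49 ± 0.19, adjusted p = 0.0416), and the ICM libraries overlapped the young ones.

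MSH6 and FANCI were the other members called lower in ICM cells. MSH6 stood at 92.04, 145 and 159 CPM in young, 71.1, 54.96 and 63.4 CPM in old and 22.2, 38.004 and 130.0 CPM in ICM libraries. The log2 changes were -1.86 ± 0.43 in ICM and -1.02 ± 0.25 in old cells, and the ICM call was lost without ICM replicate 1 (adjusted p = 0.11) and in DESeq2 (0.0501). The old call was lost in DESeq2 (0.18), with a replicate block (0.14) and without young replicate 2 (0.055) or young replicate 3 (0.12). FANCI had 1, 40 and 123 footprints in the young, 31, 2 and 9 in the old and 0, 0 and 3 in the ICM libraries. Its log2 changes were -2.83 ± 0.83 and -1.68 ± 0.40, the former lost in DESeq2 (adjusted p = 0.17), with a replicate block (0.13) and without ICM replicate 1 (0.22), and the latter in DESeq2 (0.33) and with a replicate block (0.30). Without ICM replicate 3, both genes were also called lower in ICM than in old cells (adjusted p = 0.034 for MSH6 and 0.038 for FANCI).

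The sensors ATR, RAD50 and TP53BP1 were called lower in old vs young footprints and not in ICM vs young. ATR stood at 55.2, 55.5 and 64.6 CPM in young, 19.7, 36.6 and 13.7 CPM in old and 17.8, 114 and 86.6 CPM in ICM libraries. The old libraries were below the young ones, and the ICM libraries, with 4 to 9 footprints each, lay below the young ones once (17.8 CPM) and above them otherwise. The log2 changes were -1.58 ± 0.39 in old (adjusted p = 0.00162) and -0.25 ± 0.51 in ICM cells (adjusted p = 0.752), and ICM vs old was 1.34 ± 0.60 (adjusted p = 0.15). For RAD50 they were -1.04 ± 0.28 in old (adjusted p = 0.00428) and -0.56 ± 0.41 in ICM cells, from 3, 73 and 135 footprints in the young, 59, 1 and 29 in the old and 15, 4 and 2 in the ICM libraries. For TP53BP1 they were -0.69 ± 0.24 (adjusted p = 0.0259) and -0.94 ± 0.37 (adjusted p = 0.0578), from 8, 83 and 278 footprints in the young, 146, 5 and 43 in the old and 15, 2 and 9 in the ICM libraries. The difference between ICM and old footprints was not called for any of the 3. Without ICM replicate 1, ATR was called higher in ICM than in old cells (log2 change 2.20, adjusted p = 0.0129). The ICM vs young change of TP53BP1 was called without ICM replicate 3 (adjusted p = 0.0030) or young replicate 1 (0.0384) and with no expression filter (0.0386).

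ATM had 3, 45 and 86 footprints in the young, 42, 2 and 20 in the old and 13, 2 and 0 in the ICM libraries, and no comparison was called (old vs young -0.85 ± 0.35, adjusted p = 0.0539). APEX1 stood at 110.5, 199 and 148 CPM in young, 103, 54.96 and 95.9 CPM in old and 107, 139 and 64.98 CPM in ICM libraries. It was called in old vs young (-0.64 ± 0.22, adjusted p = 0.0235). For ATR, RAD50, TP53BP1, XRCC6 and APEX1, the old vs young call was lost in DESeq2 (adjusted p from 0.12 to 0.32) and with a replicate block (0.17 to 0.24). The same happened without young replicate 2, young replicate 3 or old replicate 1 (0.063 to 0.39). It was also lost without old replicate 3 for ATR (0.075), TP53BP1 (0.15), XRCC6 (0.21) and APEX1 (0.079), and without old replicate 2 for TP53BP1 (0.051), XRCC6 (0.096) and APEX1 (0.086).

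The 27 other members were not tested in Ribo-seq, and their footprints are given as pooled counts, with ratios whose exact 95% intervals cover counting error only. FANCD2 had 81 in young, 10 in old and 0 in ICM cells. A count of 0 in the pooled ICM libraries allows up to 8.57 CPM (3 reads), so that its ICM level was at least 3.85-fold lower than the pooled young level, and its old level was 0.131 of it (95% interval 0.0607 to 0.254). BRCA1 had 56, 15 and 0, at least 2.66-fold lower in ICM and 0.285 of young in old cells (0.15 to 0.511). EXO1 had 39, 7 and 0, FANCG 39, 10 and 0, and BLM 38, 5 and 0, which put the ICM levels at least 1.85-fold, 1.85-fold and 1.80-fold lower. RAD54L (15), XRCC3 (11), FANCE (10) and XRCC2 (7) had too few young footprints for a fall to be detectable at the ICM depth. In ICM cells they also had 0. XRCC2 had 0 in old cells too, at least 2.19-fold lower than the pooled young level. All these limits for 0 reads take the young count as exact, so they would be smaller with its counting error included.

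Of the genes that kept some ICM footprints, CHEK1 had 89, 23 and 2 in young, old and ICM cells, an ICM ratio of 0.158 (0.0188 to 0.587). MDC1 had 93, 24 and 3, with a ratio of 0.226 (0.0459 to 0.683). NBN had 138, 60 and 7, with a ratio of 0.356 (0.141 to 0.754), and XRCC1 67, 41 and 3, with a ratio of 0.314 (0.0632 to 0.959). These intervals lie below 1. BRCA2 had 51, 8 and 1 (ratio 0.138, 0.00342 to 0.802). Pooled intervals and limits for 0 reads were worked out for the members only, so no share of all genes stands beside them. For BARD1, RAD51AP1, RAD51C, PALB2, FANCA, FANCB, FANCC, FANCL, PMS2, CHEK2, XRCC4, LIG4 and UNG the ICM interval included 1. In old cells the intervals of UNG, XRCC4, LIG4, PMS2 and PALB2 included 1, with 63, 27, 56, 22 and 8 footprints against 65, 28, 70, 23 and 15 in young cells, as did those of FANCE, RAD54L and XRCC3.

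Summed over the group, footprints of homologous recombination genes were 184, 120 and 134 CPM in young, 39.5, 36.6 and 41.1 CPM in old and 17.8, 25.3 and 130 CPM in ICM libraries. They rest on 10, 82 and 230 footprints in the young, 66, 2 and 24 in the old and 4, 2 and 6 in the ICM libraries, so that several of these values are set by few reads. End joining genes gave 1859 to 2144 CPM in young, 1021 to 1044 in old and 1182, 1254 and 1819 in ICM libraries. All 38 genes together gave 3019 to 3576 CPM in young, 1649 to 1718 in old and 1676, 1774 and 2816 in ICM libraries, so ICM replicate 3, the shallowest library, stood above the other ICM and the old libraries.

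Translational efficiency, the footprint level relative to the mRNA level, was tested in the same 11 genes by a term for the interaction between assay and condition. None was called for ICM vs young, for old vs young or for ICM vs old (edgeR), beside 2.38%, 1.43% and 0.346% of the 4618 genes tested. At an unadjusted p under 0.05 there were 2, 2 and 1, and DESeq2 called 0 in each comparison. The members below that unadjusted level include PARP1, whose efficiency changed by -1.57 ± 0.56 in ICM vs young (adjusted p = 0.136) and -1.73 ± 0.56 in ICM vs old (adjusted p = 0.208). TP53BP1 stood at -1.06 ± 0.40 in ICM vs young (adjusted p = 0.16). In old vs young they were PRKDC at -0.73 ± 0.21 (adjusted p = 0.0649) and ATR at -0.95 ± 0.41 (adjusted p = 0.335). For XRCC5, whose SE was smallest, the change was -0.08 ± 0.20 in ICM and -0.18 ± 0.17 in old cells.

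**Figure D5:**
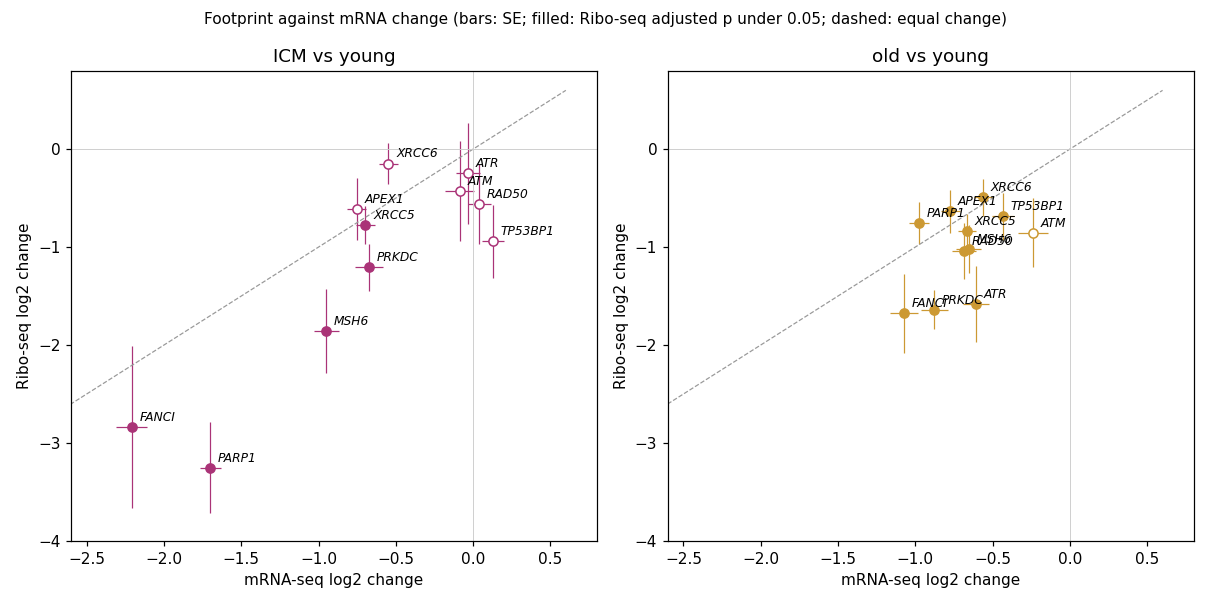
Ribo-seq log2 change against mRNA-seq log2 change of the 11 members tested in both, for ICM cells and for old cells, each against young, with bars for the SE, filled points for Ribo-seq calls and a dashed line of equal change. PARP1, at -1.70 in mRNA-seq and -3.25 in Ribo-seq, lies furthest below the line in ICM cells.

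Of 108 further repair genes listed by pathway, 65 fell and 16 rose in ICM vs young mRNA, with a median log2 change of -0.40, and 63 fell and 11 rose in old vs young, with a median of -0.30. Of all genes, 36.1% were lower and 34.9% higher in the former and 33.7% and 32.4% in the latter. Between ICM and old, 49 were lower and 25 higher, with a median of -0.08, beside 32.6% of all genes lower and 30.7% higher. The largest falls in ICM cells were those of POLQ, the polymerase of microhomology end joining (-4.24 ± 0.20), CLSPN, the adaptor between ATR and CHEK1 (-3.29 ± 0.14), and BRIP1, the helicase partner of BRCA1 (-2.84 ± 0.15). In old cells they were POLQ (-1.97 ± 0.15), CLSPN (-1.60 ± 0.11) and TIMELESS, a fork protection protein (-1.49 ± 0.10). XPC (0.93 ± 0.07), the damage sensor of nucleotide excision repair, POLH (0.61 ± 0.07), a translesion polymerase, and MLH3 (0.58 ± 0.11) rose most in ICM cells, and ERCC6 (0.98 ± 0.11), POLH (0.93 ± 0.07) and NEIL2 (0.45 ± 0.10) in old cells. Ribo-seq tested 19 of the 108 and called 4 lower in ICM vs young, RIF1, H2AFX, FEN1 and RECQL, beside 12.9% of all genes lower. In ICM vs old it called FEN1 lower and XPC higher, beside 7.62% of all genes lower and 5.79% higher. RIF1, H2AFX and RECQL were also called lower in old vs young, where 4 of the 19 were lower beside 17% of all genes. These are named because they are few, chosen after their values were seen. None was called in translational efficiency in the 3 comparisons by edgeR or DESeq2, with 0 at an unadjusted p under 0.05.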

How the data were processed

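The authors deposited estimated counts per gene and region (5′ UTR, CDS, 3′ UTR and non-coding exons) for each Ribo-seq and mRNA-seq library, some of them not whole numbers. Strandedness, annotation release and the placing of reads with several matches are not given in the sources used here. Per the study's methods, cultures were lysed with cycloheximide and a part of each lysate was poly(A)-selected for mRNA-seq, whereas the labels give total RNA. For mRNA-seq, reads of both UTRs and the CDS were summed per gene, and for Ribo-seq CDS reads were used. Estimated counts were rounded and tested with edgeR 4.0.16 (quasi-likelihood, TMM scaling, filterByExpr) in R 4.3.3 over all 9 libraries of an assay. Translational efficiency was the interaction of assay and condition over 18 libraries with the lysate as a block. P-values were adjusted by Benjamini-Hochberg over all genes tested and called under 0.05, and SEs are on the log2 scale. Scripts were tested on simulated data.

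The members, gene lists and tests were chosen with earlier results of these data known. All 38 members are named, 32 of them with every mRNA-seq library, since they reached a mean of 10 CPM in some condition or were called in Ribo-seq. Of the other repair genes, the 3 largest falls and the 3 largest rises among those called are named. Intervals of pooled counts are exact at 95%, and limits for 0 reads are 3 counts of the pooled total, and both cover counting error only. The limits for 0 reads leave out the counting error of the young count. Alternatives were DESeq2 1.42.0, RLE scaling, no filter, CDS reads only, a replicate block, other thresholds, thinning, the compared conditions alone and leaving out libraries. Some results for single genes are not reported here.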

Additional observations from a re-analysis of the deposited data

Results flagged for a closer look

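Footprints of PMS2 in the 3′ UTR, a region that the comparisons do not use, were above the young level in old cells, at a mean of 9.09 CPM. They rest on 4.33 estimated reads over the 3 old libraries, against 0.5 in the young and 0 in the ICM libraries, and PMS2 has near-identical copies elsewhere in the genome.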

How the results depend on the processing

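Of 104 called changes of members, 67 kept their call and direction in every alternative run that tested the gene, and 37 lost the call in at least one. Runs in which a gene was not tested were left out, and for most members this includes the thinned run. One reversed, MSH6 mRNA in ICM vs old, at 0.39 with mRNA-seq thinned to Ribo-seq depth. That thinning left 10 members tested in mRNA-seq and 6, 8 and 0 called in ICM vs young, old vs young and ICM vs old. Of the 5361 genes tested there, 1806, 2557 and 1181 were called. With a log2 change over 0.6 required, 24 of 38 mRNAs were called in ICM vs young, 24 lower and 0 higher, beside 5055 of 13173 genes. In ICM vs old, 15 of 38 were then called, 13 lower and 2 higher, beside 3870 of 13173 genes. The rise of PMS2 against young and those of ATR and TP53BP1 against old were among the calls lost. In Ribo-seq, ICM vs young gave 3 of 11 members tested with DESeq2, 13 of 38 without the expression filter and 9 of 23 without the lysates of low CDS share. All genes gave 688 of 4643, 1477 of 13714 and 1553 of 8113 in the same order. Old vs young gave 2 of 11 with DESeq2 and 2 of 11 with a replicate block. It gave 18 of 38 without the filter, 17 of 22 with the compared conditions only and 16 of 23 without the low lysates. All genes gave 530 of 4643, 653 of 4643, 2044 of 13714, 3142 of 7521 and 2154 of 8113 in the same order. ICM vs old gave 2 of 11 at an adjusted p under 0.15, beside 1020 of 4643 genes. For translational efficiency, ICM vs young gave 1 of 11 at that threshold and 2 of 11 with no replicate block, beside 313 and 305 of 4618 genes. Old vs young gave 1 at that threshold, with RLE scaling, with CDS reads only and with the compared conditions only, and 2 with no replicate block. Members tested were 11, but 22 with the compared conditions only. All genes gave 107 of 4618, 61 of 4618, 48 of 4614, 231 of 7473 and 409 of 4618 in the same order. ICM vs old gave 1 of 11 with no replicate block, beside 60 of 4618 genes. The cause was not tested.

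Leaving out 1 replicate at a time gave 29 to 32, 32 to 34 and 22 to 24 calls in mRNA-seq, 3 to 9, 2 to 15 and 1 to 3 in Ribo-seq, and 0 to 2, 0 to 1 and 0 to 1 in translational efficiency, in the order ICM vs young, old vs young and ICM vs old. The numbers of members tested changed too, to 9 to 21 in Ribo-seq. ICM vs old in Ribo-seq was 3 without ICM replicate 3, and without ICM replicate 1 the 1 call was a rise of ATR and not the fall of PARP1.

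Whether replicate numbers pair the samples could not be decided from the correlations between libraries. Deviations of same-numbered libraries correlated at -0.0555 to 0.103 in mRNA-seq and 0.00467 to 0.0557 in Ribo-seq. Those of both assays of one lysate correlated at -0.0795 to 0.136. The assays of a lysate are paired by design, so this measure misses a known pairing. Depth limits the Ribo-seq results, since a pooled count of 0 allows 8.57 CPM in ICM cells against 1.22 CPM in young cells.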

Other observations

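Nucleotide excision repair removes bulky lesions such as those of ultraviolet light. Of 14 of its genes, 5 fell and 3 rose in ICM vs young mRNA, with a median log2 change of 0.03, and 3 fell and 5 rose in old vs young, with a median of 0.09. Of all genes, 36.1% were lower and 34.9% higher in ICM vs young, and 33.7% and 32.4% in old vs young. XPC, the sensor of distorted DNA, rose by 0.93 ± 0.07 in ICM cells and fell by 0.29 ± 0.08 in old cells. It was higher in ICM than in old cells by 1.22 ± 0.07 in mRNA and by 1.58 ± 0.41 in footprints (adjusted p = 0.00606, edgeR). ERCC6, which couples repair to stalled transcription, rose in old cells, with 0.98 ± 0.11 for old against young cells and -0.90 ± 0.11 for ICM against old cells. Its mean mRNA level was 8.64 CPM in young, 15.9 CPM in old and 9.31 CPM in ICM cells.

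Of 12 genes of translesion synthesis and direct reversal, 5 fell and 3 rose in ICM vs young, and 8 fell and 1 rose in old vs young, beside the same shares of all genes. RAD18, the ligase that marks stalled forks, fell by 1.69 ± 0.12 in ICM and by 0.37 ± 0.11 in old cells. POLH, a polymerase that bypasses ultraviolet lesions, rose in both, by 0.61 ± 0.07 and 0.93 ± 0.07. MGMT, which reverses alkylation of guanine, was higher in ICM than in old cells by 0.71 ± 0.11. Both lists were chosen with earlier results known.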
